A study of Mus musculus with 40 samples.

Results

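The genes described are the mouse zinc finger genes named Zfp followed only by digits. Genes were chosen by their level: the CPM, a read count scaled to the library's total count, had to average at least 5 over 36 BXD lines. The levels given are therefore a description of the chosen genes. Of 23955 gene symbols in the counts, 334 had such a name and 280 reached the minimum. Another 32 averaged 1 to 5 CPM and 22 averaged below 1 CPM, of which 2 had no read in any library. Just inside the minimum were Zfp472 at 5.06, Zfp959 at 5.11 and Zfp85 at 5.12 CPM, and just outside it were Zfp931 at 4.74, Zfp36 at 4.76 and Zfp599 at 4.97 CPM. No included gene had fewer than 36 reads in any of the 40 libraries.

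The libraries were made from hypothalamic RNA of untreated mice. They represent 36 BXD lines, which are inbred lines descended from crosses of C57BL/6J with DBA/2J, so that each carries a mosaic of both parental genomes. Both parental strains and both reciprocal first-generation hybrids, B6D2F1 and D2B6F1, completed the panel. Every strain was measured in 1 library, which for a BXD line was made from pooled RNA of 3 to 6 animals, so the data hold no spread between animals of 1 strain. By its title the series concerns Fgf15/19 in the hypothalamus and glucagon secretion.

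C2H2 zinc fingers are small protein loops in which a pair of cysteines and a pair of histidines hold a zinc ion, and arrays of them read DNA or RNA sequence. Many Zfp proteins also carry a KRAB domain, which recruits the co-repressor Trim28 and through it histone methylation, and members of this class silence retroelements and protect imprints. KRAB zinc finger genes lie in tandem clusters that grew by duplication. The prefix Zfp is a naming convention, and it also covers ubiquitin ligases, ribosome factors and RNA-binding proteins.

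In proteins translated from the GENCODE annotation for 278 of the 280 genes, the C2H2 pattern occurred a median of 11 times, with a maximum of 36 in Zfp142. It was absent in 7 proteins, those of Zfp259, Zfp330, Zfp365, Zfp503, Zfp703, Zfp839 and Zfp935. A KRAB pattern was found in 118 proteins, with a median of 12 fingers, and was not found in 160, with a median of 9. The count depends on the pattern used, so a protein without a match can still hold a KRAB domain. The genes lay on 20 chromosomes (1 to 19 and X). Chromosome 7 held 75 of them, 34 with the KRAB pattern, chromosome 17 held 33, 26 with the pattern, and chromosome 13 held 19, 11 with the pattern.

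Promoter sequence from RefSeq (GRCm38.p6, 250 bases before to 50 after the start) was matched for 233 of the 280 genes. All 32896 words of 8 bases were counted on both strands, and the word with the largest excess over the promoters of 27025 genes was AATGTAGT (reverse complement ACTACATT). It stood in 31 Zfp promoters (13.3%) and in 1.35% of all, where all genes were not held to the minimum of 5 CPM. The 2 words next in excess, AAATGTAG (12.4% against 1.68%) and GAAATGTA (12.02% against 1.93%), overlap it, and the fourth was CACTTCCG (13.7% against 3.86%). On chromosome 13 AATGTAGT stood in 7 of 17 matched promoters, on chromosome 7 in 18 of 69, and on chromosome 17 in 0 of 30. The share was 16.2% in genes with the KRAB pattern and 11.1% in those without it. Stretches of 60 bases that end at or before the start site are shown, with the word in either orientation in capitals. The 7 genes of chromosome 13 are given to show the bases around the word, and 4 genes of chromosome 7 stand beside them, among them Zfp420, which has a wide spread over the lines.
Zfp708, chr13:67081558-67081617, minus strand: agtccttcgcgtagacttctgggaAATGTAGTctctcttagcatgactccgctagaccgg
Zfp273, chr13:67813729-67813788, plus strand: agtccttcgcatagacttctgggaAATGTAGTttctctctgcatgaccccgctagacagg
Zfp85, chr13:67755203-67755262, minus strand: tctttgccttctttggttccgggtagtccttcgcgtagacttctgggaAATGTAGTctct
Zfp458, chr13:67269133-67269192, minus strand: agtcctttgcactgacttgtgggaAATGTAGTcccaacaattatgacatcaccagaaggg
Zfp759, chr13:67128156-67128215, plus strand: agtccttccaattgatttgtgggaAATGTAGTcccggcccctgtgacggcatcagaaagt
Zfp712, chr13:67061187-67061246, minus strand: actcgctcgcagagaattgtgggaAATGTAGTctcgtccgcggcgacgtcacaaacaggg
Zfp72, chr13:74390843-74390902, minus strand: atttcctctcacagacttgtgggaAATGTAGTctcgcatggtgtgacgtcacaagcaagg
Zfp420, chr7:29859896-29859955, plus strand: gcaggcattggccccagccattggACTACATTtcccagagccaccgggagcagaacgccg
Zfp60, chr7:27731320-27731379, plus strand: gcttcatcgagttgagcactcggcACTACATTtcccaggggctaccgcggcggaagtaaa
Zfp260, chr7:30095016-30095075, plus strand: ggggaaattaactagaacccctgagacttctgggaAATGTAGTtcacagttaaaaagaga
Zfp111, chr7:24208174-24208233, minus strand: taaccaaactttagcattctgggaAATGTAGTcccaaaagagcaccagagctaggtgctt

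Another 7 motifs known from mammalian promoters were searched on both strands. CCGGAAGT, the core bound by ETS factors, stood in 12.02% of the Zfp promoters against 4.31% of all, and ATGGCGGC in 7.73% against 2.60%. GGGCGG stood in 50.6% against 38.2% and CCAAT in 47.6% against 41.1%. TATAAA, the letters of a TATA box, stood in 9.01% against 15.7%, TGANTCA (N for any base) in 5.15% against 8.97%, and TGACGTCA in 3.00% against 2.03%. The promoters of all genes include those of genes below 5 CPM, and the part of expression level in these shares was not tested. A match of letters is not a measured binding site, and genes of a tandem cluster share ancestry, so their promoters are not independent.

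The libraries held 12.2 M (BXD55) to 40.4 M (BXD51) counted reads, and the median library 23.6 M. The 280 genes took 0.859% (BXD103) to 0.943% (BXD43) of a library's reads. BXD43 stood farthest from the median profile of these genes, with a median absolute deviation of 0.20 log2 units against 0.082 for the median line. All 14 hypothalamic marker genes checked (among them Agrp, Pomc, Hcrt, Pmch, Oxt and Avp) had reads in every library, and their summed level ran from 351 CPM in BXD63 to 866 CPM in BXD101. Markers of neighbouring tissue varied more: 5 striatal genes summed to 115 (BXD32) to 583 CPM (BXD90), and 6 choroid plexus genes to 41.4 (BXD49) to 903 CPM (BXD32). In bulk RNA, fewer cells of a type and less RNA per cell cannot be told apart.

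Levels were low for most of the genes. From here on CPM are scaled between libraries by TMM, a factor that evens out composition. The median gene averaged 21.3 CPM over the lines, 134 genes averaged under 20, 134 lay between 20 and 100, and 12 averaged at least 100 CPM. The most abundant was Zfp106, an RNA-binding protein required by motor neurons, at 300.0 ± 30.04 CPM (SD, n = 36 lines). Zfp445, a KRAB protein that maintains imprints, followed at 258 ± 17.3 CPM. Next came Zfp706 at 186, Zfp612 at 172, Zfp365 at 157, Zfp207 at 155, Zfp664 at 147, Zfp871 at 135, Zfp462 at 120 and Zfp740 at 108 CPM.

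Divided by exon length, the order changed. Zfp706, which encodes a short protein, led at 37.4 CPM per kilobase, followed by Zfp445 at 34.8, Zfp365 at 30.2, Zfp869 and Zfp106 at 28.8 each, and Zfp612 at 28.4 CPM per kilobase. Zfp207, a mitotic spindle protein, stood at 23.2, Zfp692 at 22.5, Zfp740 at 21.2 and Zfp664 at 18.7 CPM per kilobase. The median of the 280 genes was 4.64 CPM per kilobase. Genes with the KRAB pattern had a median of 4.00 and genes without it 5.17 CPM per kilobase, a description with no test.

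Among the regulators of imprinting and retroelements, 8 of 8 listed genes were included, where 280 of all 334 Zfp symbols were. None of the 8 had an SD of log2 CPM over the lines of 0.3 or more. Only 6.36% of all genes of at least 5 CPM had such an SD, so this is near the background. Zfp57, which holds DNA methylation at imprinted regions together with Trim28, averaged 37.9 ± 3.43 CPM (SD, n = 36), with a range of 32.8 to 50.2. Zfp568, which represses a placental Igf2 transcript in the embryo, averaged 8.60 ± 1.006 CPM, and Zfp809, which silences retroviruses that use the proline tRNA primer site, averaged 8.83 ± 1.17 CPM. Zfp932, a repressor of endogenous retroviruses, averaged 32.3 ± 3.31 CPM, Zfp597, itself an imprinted gene, 42.0 ± 3.98 CPM, Zfp202 12.5 ± 0.947 CPM and Zfp708 5.33 ± 0.694 CPM. Every 100-base window of Zfp708 also occurs in another gene, so the reads counted for it could belong elsewhere. The smallest SD of log2 CPM in this list was 0.097, for Zfp445.

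Of 12 listed neural and developmental genes 11 were included, and Zfp238 had no row under that symbol. Zfp462, a chromatin factor linked to neurodevelopment, was highest at 120 ± 12.3 CPM (SD, n = 36). Zfp148 averaged 92.8 ± 7.53, Zfp335 62.7 ± 5.69, Zfp423 62.0 ± 4.51, Zfp292 58.2 ± 5.71, Zfp281 49.7 ± 4.15 and Zfp521 42.5 ± 3.25 CPM. Lower levels were measured for Zfp703 (18 ± 2.80 CPM), Zfp536, a repressor of neuronal differentiation genes (15.7 ± 2.22 CPM), Zfp503 (9.36 ± 1.95 CPM) and Zfp488, an oligodendrocyte factor (5.55 ± 0.754 CPM). Zfp503, also known as Nolz1 and studied in striatal development, had the widest spread of this list, from 6.13 to 14.9 CPM and an SD of 0.29 log2 units.

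Of 12 listed genes of RNA handling, ribosomes and ubiquitin 9 were included, with Zfp106 and Zfp207 named above as the most abundant. Zfp598, the ubiquitin ligase that marks collided ribosomes, averaged 69.9 ± 4.58 CPM (SD, n = 36), and Zfp91, a ubiquitin ligase, 106 ± 8.45 CPM. Zfp622, a factor of ribosome assembly, averaged 33.5 ± 3.99, Zfp346, which binds double-stranded RNA, 41.2 ± 2.09, Zfp326 35.7 ± 2.80, Zfp451, a SUMO ligase, 31.9 ± 2.97, and Zfp830 12.9 ± 0.978 CPM. In the group that works with the chromatin reader Zmynd8, Zfp592 averaged 58.2 ± 3.36, Zfp687 68.4 ± 5.50 and Zfp532 77.3 ± 3.36 CPM. Zfp36, which destabilises AU-rich mRNAs and is an early response gene, and Zfp593 at 3.38 CPM fell below the minimum.

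To see how far the genes varied from line to line, the SD of log2 CPM (with a prior count of 2) over the 36 lines was set beside the SD that counting alone would give. The median SD of the 280 genes was 0.14, against 0.13 for all 12016 genes of at least 5 CPM, and the median counting SD was 0.067 against 0.050. The SD was over 2 times the counting SD in 149 of the 280 (53.2%), against 72.8% of all genes. An SD of at least 0.3 was found in 16 genes (5.71%), against 6.36% of all genes, so the share is near the background. The smallest SD was 0.062, for Zfp706.

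**Figure D1:**
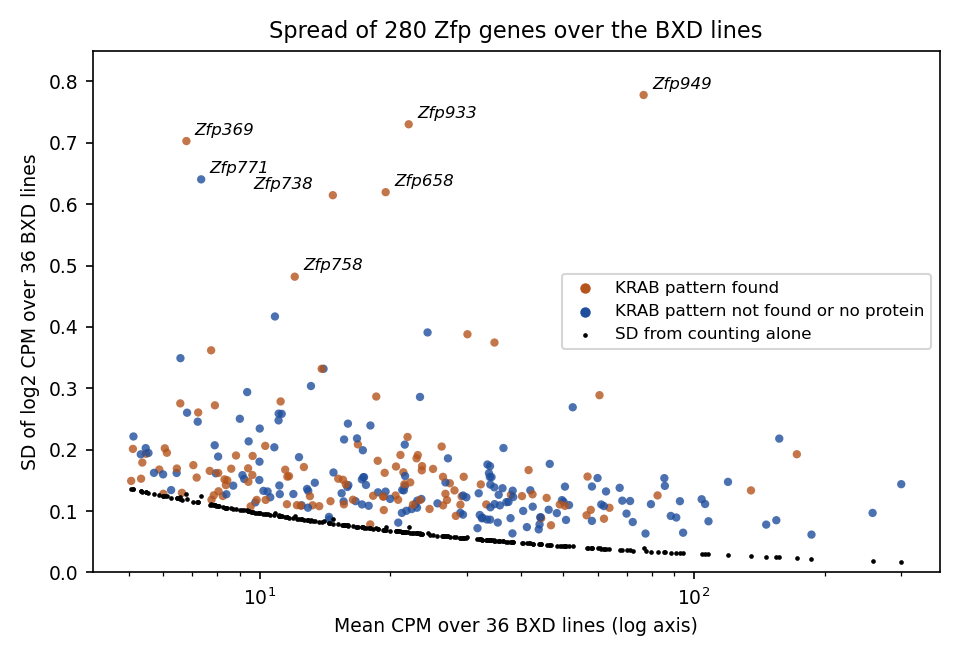
SD of log2 CPM over the 36 BXD lines (y axis) against mean CPM (x axis, log scale) for 280 Zfp genes, coloured by the KRAB pattern, with the SD from counting alone as black points. Most genes lie between the counting SD and 0.3, and 16 lie at 0.3 or above.

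Some of the wide spread took the form of separate levels. For each gene the line values were put in order and the largest distance between consecutive values was read, leaving 6 or more lines at either end. This step reached 1 log2 unit in 1 Zfp gene (0.357%), against 0.325% of all genes, and 0.5 in 4 (1.43%), against 1.07%. Both shares are close to the background. These 4 genes were Zfp949, Zfp933, Zfp738 and Zfp658.

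Zfp949, a KRAB protein gene on chromosome 9, had the widest step. It ran from 28.2 CPM in BXD79 through a median of 94.9 to 110 CPM in BXD63, with 12 lines at 38.7 CPM or below, 24 at 91.8 or above and none between, a step of 1.25 log2 units. C57BL/6J stood at 42.1, DBA/2J at 81.5, B6D2F1 at 60.8 and D2B6F1 at 66.2 CPM. All 4 of these libraries lay inside the interval that the BXD lines left empty, with C57BL/6J near its lower edge and DBA/2J near its upper edge. The genes most like Zfp949 over the 36 lines were Morf4l1 (Pearson r = -0.97), Plscr4 (r = -0.88) and Adamts7 (r = 0.84), all on chromosome 9. Morf4l1 encodes a subunit of histone acetylation complexes.

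Zfp933 on chromosome 4 was the next by step. It ran from 9.35 CPM in BXD71 through 25.4 to 37.8 CPM in BXD101, with 13 lines at 12.4 or below and 23 at 23.9 or above, 0.94 log2 units apart. C57BL/6J, at 31.1 CPM, lay among the high lines and DBA/2J, at 12.3 CPM, among the low ones, while the hybrids stood between the sets at 20.2 (B6D2F1) and 22.2 CPM (D2B6F1). Its nearest genes in pattern were Gm13157 (r = 0.96), Miip (r = 0.91) and Agtrap (r = 0.90), all on chromosome 4.

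Zfp738 is a KRAB protein gene of the chromosome 13 cluster. It ran from 6.38 CPM in BXD71 through 17.1 to 22.5 CPM in BXD63, with 13 lines at 9.45 or below and 23 at 15.6 or above. C57BL/6J, at 15.6 CPM, stood at the edge of the high lines and DBA/2J, at 8.94 CPM, among the low ones, with the hybrids between them at 13 and 13.5 CPM. The genes most like it were 4930525G20Rik (r = 0.95), Zfp874a (r = 0.94) and Rsl1 (r = 0.93), all on chromosome 13, and Rsl1 is a KRAB zinc finger repressor of sex-biased liver genes. In the GENCODE transcripts 14% of the 100-base windows of Zfp738 also occur in another gene, mainly Gm26587, so some of its reads could belong there.

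Zfp658 on chromosome 7 was high in the smaller set. It ran from 10.8 CPM in BXD49 through 14.2 to 36.1 CPM in BXD32, with 23 lines at 15.3 or below and 13 at 25.2 or above. DBA/2J, at 29.2 CPM, lay among the high lines, and C57BL/6J, at 17.6 CPM, lay just above the low ones, with B6D2F1 at 21.2 and D2B6F1 at 24.5 CPM. Its pattern was opposite to that of A230077H06Rik (r = -0.96), Zfp788 (r = -0.91) and AW146154 (r = -0.88), all on chromosome 7. Zfp788, itself one of the 280 genes and also with the KRAB pattern, ran from 43.4 to 80.0 CPM with 61.7 CPM in C57BL/6J and 50.1 in DBA/2J.

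**Figure D2:**
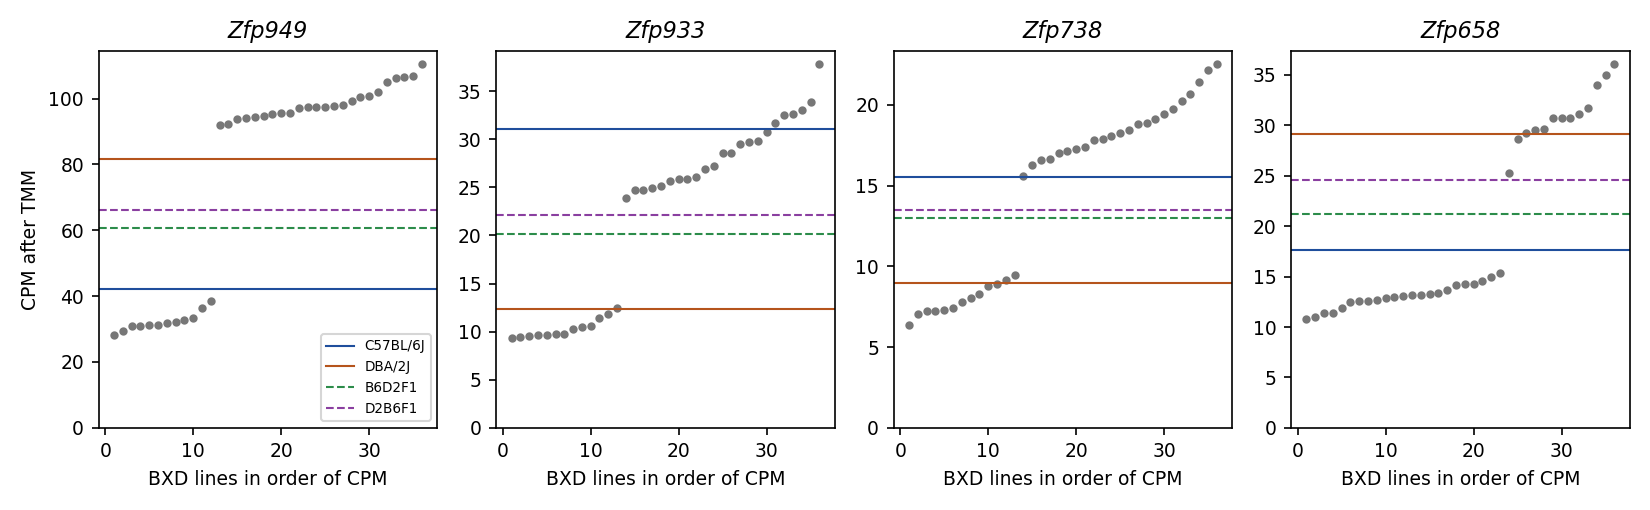
CPM (y axis, from 0) of Zfp949, Zfp933, Zfp738 and Zfp658 in the 36 BXD lines, ordered within each gene from lowest to highest (x axis), with horizontal lines for the parents (solid) and the F1 hybrids (dashed). Each gene shows a low and a high set of lines, with both hybrids between the sets.

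Of the other genes with a wide spread, several had narrower steps. Zfp40 on chromosome 17 ran from 15.3 through 32.6 to 40.8 CPM, with 10 lines at 21.9 or below and 26 at 28.6 or above, 28.2 CPM in C57BL/6J and 19.3 in DBA/2J. Its nearest genes were Prss41 (r = -0.93), Rnps1 (r = 0.93) and Cramp1l (r = 0.91), all on chromosome 17. Zfp758, also on chromosome 17, averaged 12 ± 3.69 CPM (SD, n = 36) and ranged from 5.75 to 18.1. Zfp420 on chromosome 7 averaged 24.4 ± 6.49 CPM, Zfp157 on chromosome 5 34.7 ± 8.28 CPM and Zfp963 on chromosome 8 7.73 ± 2.04 CPM. Zfp963 and Zfp617, a neighbour in pattern (r = 0.89), share 38.0% and 34.2% of their windows with other genes, so how reads were divided there is uncertain.

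Zfp369 and Zfp771 showed a wide but continuous spread. Zfp369, a KRAB protein gene on chromosome 13, ran from 1.17 CPM in BXD101 through 6.67 to 11.2 CPM in BXD49. Both parents were near the top of that range, at 9.85 (C57BL/6J) and 8.87 CPM (DBA/2J), and the hybrids were at 7.41 and 5.52 CPM. Zfp771 on chromosome 7 ran from 2.86 CPM in BXD63 through 6.87 to 15.1 CPM in BXD101, with the parents at 7.33 and 6.48 CPM. Zfp428 (5.55 to 17.7 CPM) and Zfp579 (8.01 to 20.3 CPM), also on chromosome 7, were likewise lowest in BXD63 and highest in BXD101. Those are the lines with the lowest and the highest sum of hypothalamic markers, and the part of tissue composition in these values was not tested.

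The 16 genes with an SD of at least 0.3 differed in where their most similar genes lay, a description chosen after the values were seen. For each, the 20 genes with the largest absolute r over the 36 lines were taken from 14487 genes. All 20 lay on the gene's own chromosome for Zfp758 and Zfp420, 19 for Zfp658, Zfp40 and Zfp963, 18 for Zfp617, 15 for Zfp933 and Zfp738, and 11 for Zfp949. By contrast, 0 of 20 did for Zfp369, whose most similar gene was Slc9a7 on the X chromosome (r = 0.94), 3 for Zfp771 (Pcsk1n, X chromosome, r = 0.96), 2 for Zfp428 and Zfp580 and 1 for Zfp579. For Zfp157 5 of 20 lay on its own chromosome, with a closest r of 0.92, and for Zfp277 2 of 20, with a closest r of 0.64. The 36 points of each r share libraries and depth, and neighbouring genes share inherited segments in BXD lines.

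**Figure D3:**
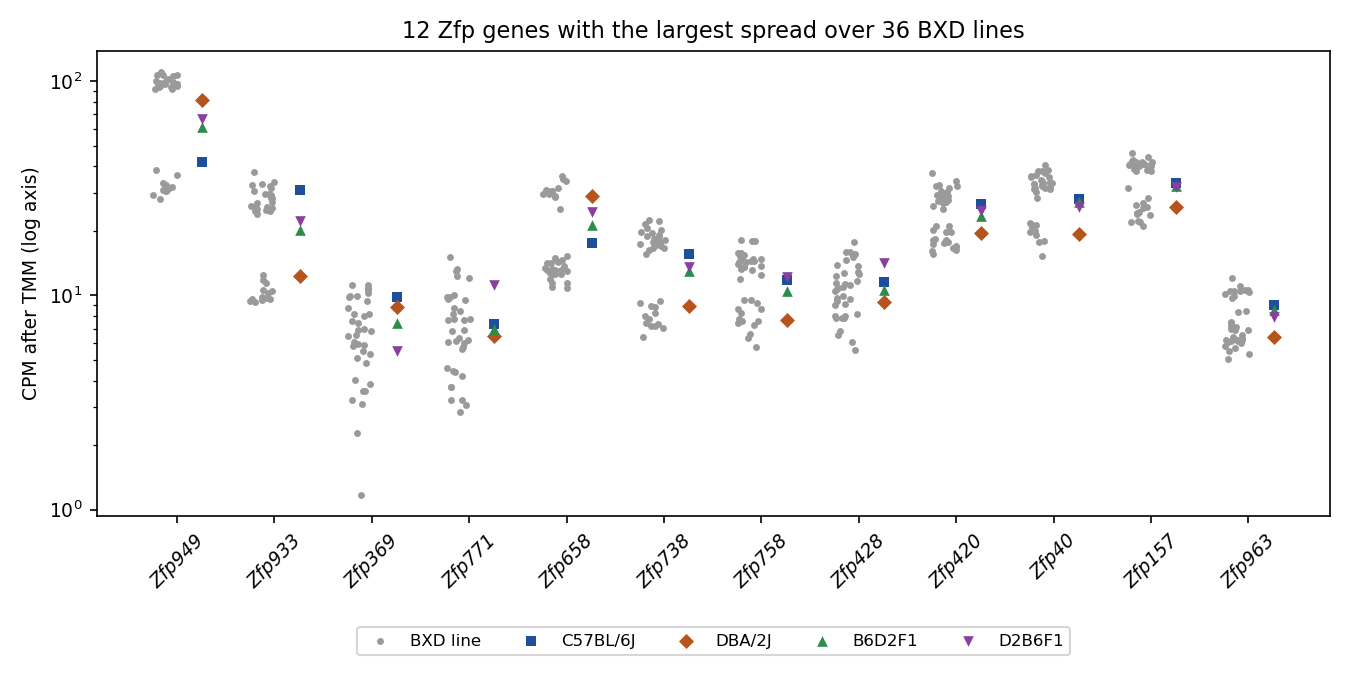
CPM (y axis, log scale) of the 12 Zfp genes with the largest SD over the 36 BXD lines (x axis, ordered by SD), with lines as grey points and the parents and F1 hybrids as coloured symbols. Zfp949, Zfp933, Zfp658 and Zfp738 fall into a low and a high set, while Zfp369 and Zfp771 spread continuously.

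Neighbouring Zfp genes had a higher median likeness than other pairs, a description with no test. Across the 260 pairs of neighbours in gene order on a chromosome, the median r over the lines was 0.18 and 18.8% of pairs had r of at least 0.5. For 4122 other pairs on the same chromosome the median was 0.048 and the share 9.90%, and for 34678 pairs on different chromosomes 0.052 and 8.16%. All pairs of genes of at least 5 CPM gave a median of -0.0026 and a share of 7.62%. The 5 most similar neighbours were Zfp758 with Zfp944 (r = 0.90), Zfp715 with Zfp788 (0.89), Zfp444 with Zfp787 (0.88), Zfp942 with Zfp943 (0.85) and Zfp579 with Zfp865 (0.85). Genes that share sequence can also share reads. Of the 278 genes with a coding transcript, 92 had at least 1 100-base window in common with another gene. In 18 more than 20% of windows were shared, up to 100% for Zfp708. Whether the other gene was a copy or overlapped the same locus was not examined.

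The parents were compared by size alone, since each has 1 library. The difference in log2 CPM, C57BL/6J minus DBA/2J, was at least 0.5 in either direction for 9 of the 280 genes (3.21%), against 2.55% of all genes. Higher in C57BL/6J were 5 (background 1.79%) and higher in DBA/2J 4 (background 0.757%). A difference of at least 1 was found for 1 gene, Zfp933, higher in C57BL/6J, or 0.357% against 0.533% of all genes (0.416% higher in C57BL/6J). The median absolute difference was 0.11 in the 280 genes and 0.083 in all genes. Over all genes more were higher in C57BL/6J (1.79%) than in DBA/2J (0.757%). The part of read mapping in these differences, and in the separate levels over the lines above, was not tested. Of the 118 genes with the KRAB pattern 8 differed by at least 0.5, and of the 160 without it 1 did, Zfp85. This is a description with no test.

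Zfp933 differed most, by 1.33 ± 0.095 log2 units, where the error is the counting SE alone. The other genes higher in C57BL/6J were Zfp738 (0.79 ± 0.12), Zfp758 (0.62 ± 0.13), Zfp791 (0.59 ± 0.16) and Zfp40 (0.54 ± 0.084). Higher in DBA/2J were Zfp949 (-0.95 ± 0.054), Zfp658 (-0.73 ± 0.086), Zfp85 (-0.65 ± 0.19) and Zfp39 (-0.54 ± 0.11). Zfp963 followed at 0.49 ± 0.15. Both hybrids lay between the parents for 8 of the 9 genes, where 80.4% of the 306 genes with such a difference showed the same. The exception was Zfp758, at 12.2 CPM in D2B6F1 and 11.8 CPM in C57BL/6J.

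**Figure D4:**
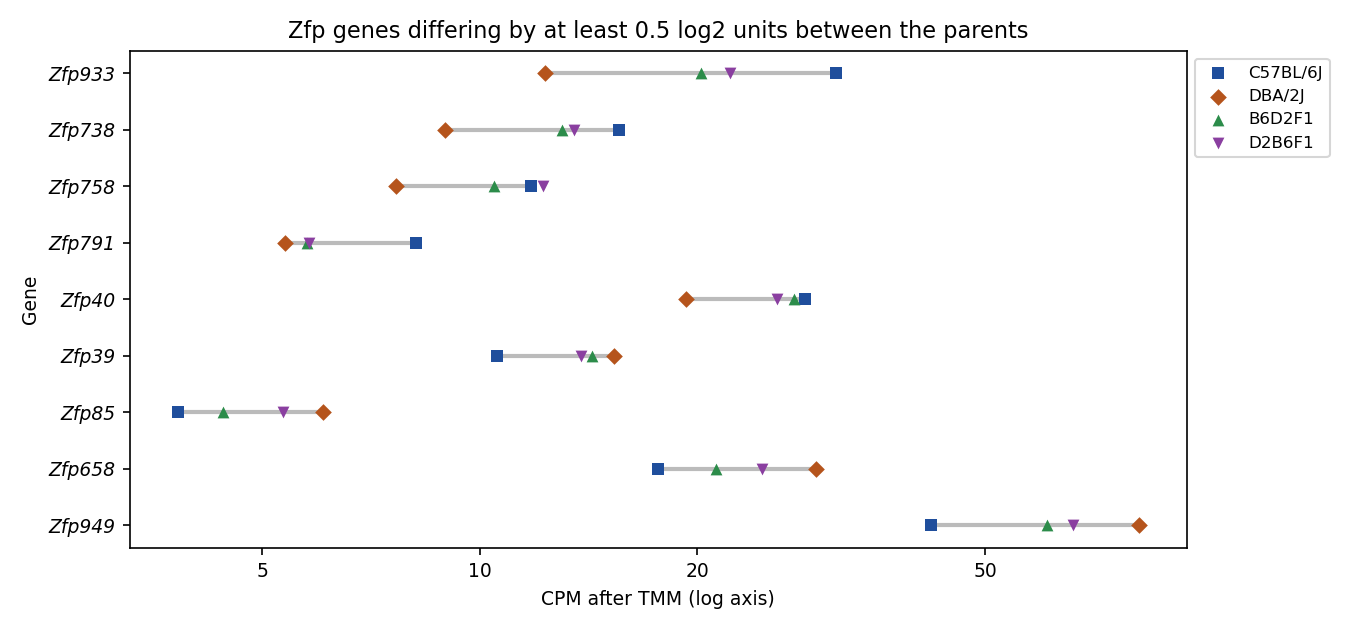
CPM (x axis, log scale) in C57BL/6J, DBA/2J and the hybrids B6D2F1 and D2B6F1 for the 9 Zfp genes (y axis) that differ by at least 0.5 log2 units between the parents, with 1 library per symbol and a grey bar joining the parents. The hybrids lie between the parents for every gene but Zfp758, where D2B6F1 stands at 12.2 CPM.

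The reciprocal hybrids, which have the same autosomes but differ in which strain was the mother, differed by at least 0.5 log2 units in 2 of the 280 genes (0.714%), against 0.707% of all genes. Zfp771 stood at 6.96 CPM in B6D2F1 and 11.2 in D2B6F1, a difference of -0.68 ± 0.13 (counting SE). Zfp382 stood at 13.9 and 8.97 CPM, a difference of 0.62 ± 0.11. Zfp771 ranged from 2.86 to 15.1 CPM among the BXD lines, and Zfp382 from 7.29 to 15.7 CPM, so all 4 values lie within the spread between lines. The imprinted Zfp597 was not among the genes past this size. Its parental difference, C57BL/6J minus DBA/2J, was only -0.12 log2 units, so the total count in the hybrids cannot report on its imprinting.

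In C57BL/6J, 18 of the 280 genes (6.43%) lay outside the range of all 36 lines, against 1.91% of all genes. Below the lines were 13, among them Zfp57 at 32 CPM (lines 32.8 to 50.2), Zfp39 at 10.6 (11.9 to 21), Zfp472 at 3.59 (4.02 to 5.90) and Zfp248 at 17.1 CPM (19.0 to 25.8). Above them were 5: Zfp276, Zfp488, Zfp536, Zfp652 and Zfp791. Zfp791 stood at 8.16 CPM against 4.58 to 8.06 in the lines, a small margin. DBA/2J lay outside in 2 genes (Zfp629 and Zfp846, background 1.22%), B6D2F1 in 1 (Zfp511, background 0.325%) and D2B6F1 in 1 (Zfp101, background 0.399%). With 1 C57BL/6J library, strain and library cannot be told apart.

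Models across all genes gave no call for the strain classes. None of the 280 genes passed an adjusted p of 0.05 between the BXD lines and the 4 parental and hybrid libraries in edgeR (0% of 16198 genes passed). Both sides of this contrast hold both parental genomes, so it does not compare the parental alleles. With an unadjusted p under 0.05 there were 2 Zfp genes in edgeR (0.714%, against 1.01% of all genes) and 3 in DESeq2, and DESeq2 also called 0. The smallest p belonged to Zfp472, 0.21 ± 0.088 log2 units (SE) higher in the lines (edgeR adjusted p = 1.00), followed by Zfp59 (0.14 ± 0.068) and Zfp763 (0.12 ± 0.062). Between the hybrids and the inbred libraries 0 of the 280 were called in either tool (background 0% of 16434 genes) and 0 had an unadjusted p under 0.05 in either (0.663% of all genes in edgeR). Zfp511 (0.18 ± 0.096), Zfp867 (0.17 ± 0.10) and Zfp575 (0.27 ± 0.17) had the smallest p there.

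Over the 36 lines, no Zfp gene passed the test of a slope on Fgf15, the hypothalamic growth factor named by the series. The edgeR slope on log2 Fgf15 passed for 0 of the 280, against 0.00667% of 14994 genes, and DESeq2 called 0. In edgeR 0 genes were called higher, so Fgf15 itself was not called in its own fit, unlike Trim28 in the fit below. The level of Fgf15 is not given here and the part of counting error in it was not tested, so the lack of calls cannot show that the genes are unrelated to Fgf15. At an unadjusted p under 0.05 there were 16 in edgeR (5.71%, against 5.02% of all genes) and 18 in DESeq2. Slopes with the smallest p were those of Zfp618 (-0.12 ± 0.036 log2 units per log2 unit of Fgf15, edgeR adjusted p = 0.834), Zfp275 (-0.046 ± 0.017) and Zfp52 (-0.13 ± 0.047).

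Trim28 encodes the co-repressor that KRAB domains recruit, and its level ran from 108 CPM in BXD43 through a median of 161 to 184 CPM in BXD67. The edgeR slope on log2 Trim28 passed for 130 of the 280 Zfp genes (46.4%), and 46.4% of all 14994 genes passed too, so the share equals the background. Of the 280, 49 were higher (24.4% of all genes were) and 81 lower (22.1% of all genes were) in lines with more Trim28. Of the 118 genes with the KRAB pattern 46 passed, a smaller share than that of all genes. Lower were 41 of the 118, where 22.1% of all genes were. The median slope was -0.18 for the 280 genes, -0.28 for those with the KRAB pattern and -0.0064 for all genes, in log2 units per log2 unit of Trim28.

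BXD43, the line with the least Trim28, is also the line farthest from the median Zfp profile. Without it 79 of the 280 passed (28.2%), against 29.8% of all genes. Of the 280, 28 were higher (16% of all genes were) and 51 lower (13.8% of all genes were). Of the 118 genes with the KRAB pattern 25 passed, again a smaller share than that of all genes. Lower were 23 of the 118, where 13.8% of all genes were. The median slopes were then -0.15 for the 280, -0.23 for the KRAB pattern and 0.0013 for all genes.

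By smallest p in the fit of all 36 lines, the Zfp genes lower with more Trim28 were led by Zfp91 (-0.53 ± 0.085 SE, edgeR adjusted p = 6.24e-06), Zfp128 (-0.78 ± 0.14, adjusted p = 2.62e-05), Zfp704 (-0.68 ± 0.12), Zfp110 (-0.72 ± 0.13) and the retrovirus repressor Zfp932 (-0.62 ± 0.12). Those higher were led by Zfp651 (0.73 ± 0.12, adjusted p = 1.67e-05), Zfp637 (0.53 ± 0.11) and Zfp777 (0.60 ± 0.12). Of 25 KRAB co-repressor genes tested besides Trim28, 11 passed (44%), against 46.4% of all genes. Of the 25, 2 were higher (24.4% of all genes were), Ehmt2 (0.72 ± 0.12) and Suv39h1 (0.55 ± 0.10), both histone H3 lysine methyltransferases. Lower were 9 (background 22.1%): Pphln1 (-0.64 ± 0.11) and Mphosph8 (-0.63 ± 0.11), subunits of the HUSH silencing complex, Suv39h2, Morc2a, Smarcad1, Cbx1, Hdac2, Atrx and Morc3. Setdb1, the methyltransferase that Trim28 brings to its targets, had a slope of -0.12 ± 0.078 and did not pass.

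Immediate early genes report recent neuronal activity. The edgeR slope on the mean log2 CPM of 10 such genes (among them Fos, Egr1 and Arc) passed for 0 of the 280 Zfp genes, against 0.22% of all genes, with 32 at an unadjusted p under 0.05 (11.4%, against 12.3% of all genes). Zfp831 (0.34 ± 0.095, adjusted p = 0.144), Zfp952 (-0.16 ± 0.049) and Zfp606 (-0.17 ± 0.056) came first. The immediate early list overlaps in pattern with the striatal list described below, on which 4 of its 10 genes were called higher (background 3.47%). BXD90 had the highest mean of both lists and the highest Zfp831. For 8 oligodendrocyte genes edgeR also called 0, against 1.35% (1.08% higher and 0.267% lower), with 29 at an unadjusted p under 0.05 (10.4%, against 11.5% of all genes), led by Zfp597 (-0.34 ± 0.10, adjusted p = 0.105), Zfp12 (-0.24 ± 0.076) and Zfp783 (-0.48 ± 0.16). Depth gave no edgeR call on log2 library total (background 0%), and 28 Zfp genes had an unadjusted p under 0.05 (10%, against 11.9% of all genes). DESeq2 called Zfp382 (-0.53) and Zfp609 (-0.19), and 0.557% of the 10943 genes to which it gave an adjusted p.

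Zfp831 was higher in lines with more striatal transcripts. The edgeR slope on the mean log2 CPM of 5 striatal genes (Adora2a, Drd2, Rgs9, Ppp1r1b and Drd1a) passed for 4 of the 280 (1.43%), against 5.38% of all genes. The slope of Zfp831 was 0.26 ± 0.037 (SE) log2 units per log2 unit (adjusted p = 4.99e-06, background 3.47% for higher). Lower were 3 (background 1.91%): Zfp92 (-0.12 ± 0.034, adjusted p = 0.0356), Zfp512 (-0.064 ± 0.019, adjusted p = 0.0361) and Zfp202 (-0.10 ± 0.031, adjusted p = 0.0496). Zfp202 did not pass in DESeq2 (adjusted p = 0.0568), without the low-count filter (0.0548) or in the normalized table (0.0532), with a slope of -0.10 in each.

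In BXD90, whose 5 striatal genes summed to 583 CPM, Zfp831 reached 20.2 CPM. The next lines by striatal mean were BXD45, BXD56 and BXD64, with 13.4, 14.1 and 14.4 CPM of Zfp831, and the median line had 11.6 CPM. The highest Zfp831 after BXD90 was 14.9 CPM in BXD44, whose striatal mean was low, 3.83 log2 CPM against 6.36 in BXD90. Without BXD90 the slope of Zfp831 was 0.19 ± 0.048 (edgeR adjusted p = 0.0198), and Zfp92, Zfp512 and Zfp202 no longer passed, with slopes of -0.10, -0.068 and -0.11. Without BXD90, BXD45 and BXD56 it was 0.19 ± 0.058 (edgeR adjusted p = 0.0591), and the only Zfp gene called was Zfp422 (-0.14 ± 0.036, adjusted p = 0.0249). Striatal tissue in the dissections was not tested apart from these marker sums.

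**Figure D5:**
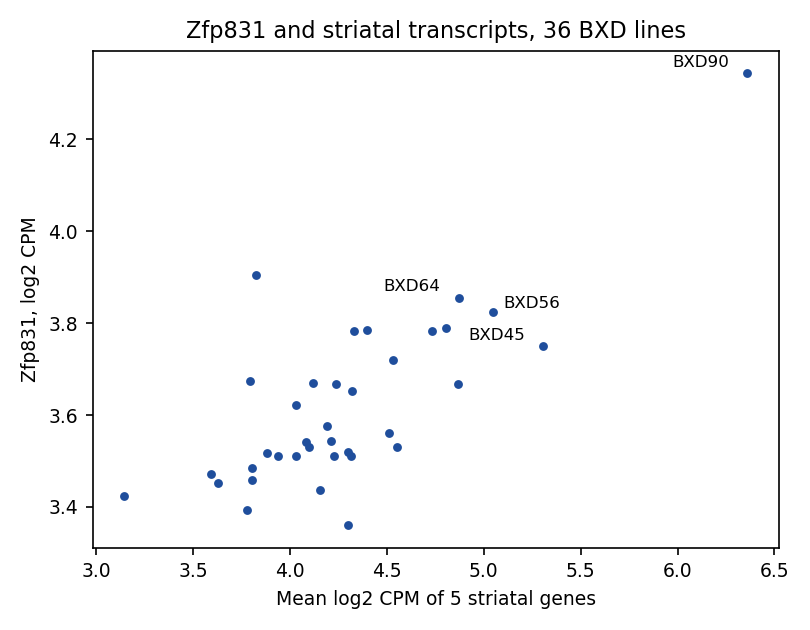
Log2 CPM of Zfp831 (y axis) against the mean log2 CPM of 5 striatal genes (x axis), 1 point for each of the 36 BXD lines, with the 4 lines of highest striatal mean named. BXD90 lies apart from the other lines on both axes, with 20.2 CPM of Zfp831.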

How the data were processed

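Total RNA was sequenced as stranded mRNA libraries with 100-base single-end reads, per the labels' protocols. The submitters' processing notes name TopHat2 2.0.8, HTSeq 0.5.4p3, DESeq and mm9, and the strand setting of the counting is not given in the sources used here. The authors deposited a table of raw read counts and a table of normalized signal, counts divided by a size factor per library. Divided by its library's step, 100% of the latter came out whole (tolerance 0.01), but only 41.2% of the Zfp values equalled the raw ones and the Zfp867 totals differed by 45.3%, so it served as an alternative.

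Raw counts went into edgeR 4.0.16 (R 4.3.3; quasi-likelihood, robust, TMM, filterByExpr, Benjamini-Hochberg over all genes tested, threshold 0.05), with DESeq2 1.42.0 as the other tool. All 280 genes passed the low-count filter of every fit. The edgeR step was tested on simulated data. Each strain is 1 library, so p-values measure the spread between libraries, in which strain, dissection and library preparation cannot be told apart. Counting errors cover reads only; PCR copies carry no mark.

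Chromosomes, exon lengths and translated proteins came from GENCODE vM21 (GRCm38.p6), not from mm9, and promoters from RefSeq. The planned RefSeq proteins were not used here. Named genes are the extremes of level, spread, step and strain difference, the smallest p of each fit, and role lists from textbook knowledge. The genes and lists were chosen with earlier results of these data known. The striatal list was used without 1 of its genes, which is not reported here.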

Additional observations from a re-analysis of the deposited data

How the results depend on the processing

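Several counts changed by more than 1.5 times. Without BXD43, chosen after seeing the data, 79 Zfp genes passed on Trim28. Without the line or the 3 lines with the most striatal transcripts, also chosen after seeing the data, 1 passed on the striatal list in each case. DESeq2 called 2 on library total, and a shorter KRAB pattern matched 75 proteins. The other 60 values of this kind stayed within 1.5 times, among them every alternative for spread, steps and parental differences. Of the single genes, 192 values kept their side of the threshold, 2 gained it and 10 lost it, and none changed direction. The Trim28 calls numbered 121 to 135 over the planned settings, with 37.3% to 39.7% of them higher. No paired analysis was possible because no library of a strain class is matched to one of another class. Depth limits genes near 5 CPM, and no strain has a second library.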
